A study of Mus musculus with 2 samples.

Results

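The unfolded protein response and the integrated stress response were examined through 31 genes of 51826 in the deposited gene table. They were taken by gene name: 15 chaperones and folding enzymes of the endoplasmic reticulum (ER), 5 genes of ER-associated degradation, 5 stress sensors and transcription factors, and 6 genes of the Atf4 branch. All 31 names matched a gene, and all 31 were measured, meaning a mean of at least 1 CPM (counts scaled to a common library size) over the libraries. The RNA was from spinal cords taken at postnatal day 7 in the C57BL/6 strain. The cKO library was from mice with the genotype Olig1-Cre;Secisbp2l-floxed(Ex3), in which exon 3 of Secisbp2l is flanked by sites for Cre and Cre is driven from Olig1, a gene of the oligodendrocyte lineage. The WT library is labelled wild type. Each group had 1 library, and the sources used here do not say how many animals it stands for, so no p-value was computed and no difference below has a replicate check.

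Proteins that enter the ER are folded there by chaperones and disulfide isomerases, and those that fail are sent back to the cytosol and degraded. When unfolded protein builds up, the sensors Ern1 (IRE1), Atf6 and Eif2ak3 (PERK) raise the transcription of chaperone and degradation genes and slow translation. The integrated stress response is the part that acts through phosphorylated eIF2 and the factor Atf4, and it can also be switched on from outside the ER. Oligodendrocytes make large amounts of membrane protein and lipid while they wrap axons, and defects of eIF2B or of myelin proteins that misfold in the ER are known to harm these cells.

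The deposited counts totalled 55179026 in the cKO library and 42875143 in the WT library, at about 2 counts to a sequenced fragment. The members held between 75 and 22347 counts in the cKO library and between 72 and 18914 in the WT library. Intervals given with a ratio are 95% exact (Clopper-Pearson) intervals on fragments. They describe the error of counting alone and hold no spread between animals, as each group has 1 library. PCR duplicates are not separate molecules, so where fragments are duplicates the intervals are too narrow even for that error. Across the 15917 measured genes the median log2 ratio of cKO over WT was 0.01, with quartiles of -0.14 and 0.15. Secisbp2l had 465.5 CPM in the cKO library and 588.3 CPM in the WT library, and these values span the whole transcript, so they do not show exon 3 by itself. Olig1, from which Cre is driven, had 175.5 CPM in the cKO library and 387.9 CPM in the WT library. The libraries also differed in sex-linked RNA: Xist had 13 counts in the cKO library and 35182 in the WT library, and Ddx3y had 4280 counts in the cKO library and 0 in the WT library. Genotype and sex-linked expression therefore cannot be told apart here. The 12 markers of mature oligodendrocytes summed to 8538 CPM in the cKO library and 17748 CPM in the WT library, and the 8 general neuron markers to 7569 and 6950 CPM in the same order. No marker of the 13 cell type and position lists was at 0 counts in either library, and the 5 Hox genes of the cord summed to 388.6 CPM in cKO and 334.3 CPM in WT. Of these, Hoxd10 (7.00 CPM in cKO, 2.24 CPM in WT) and Hoxc10 (32.84 CPM in cKO, 18.16 CPM in WT) were higher in the cKO library by at least 1.5-fold. Whether the sampled level of the cord bears on any result was not tested.

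Some promoters of these genes carry known elements through which the sensors act, and 13 of those examined held no ERSE, ERSE-II or C/EBP-ATF element (defined below). The promoters of 5 genes are shown because these genes mark the range of the results. They are Sel1l and Syvn1 as the members higher in the cKO library, and Hsp90b1 as a chaperone with little difference. The others are Herpud1 as a gene with elements of both responses, and Chac1 for Atf4. RefSeq windows (GRCm38.p6) of 250 bases before to 50 after the start were found for 26 of the 31 members. What is printed is the gene's own strand, 5′ to 3′, from 250 bases before the RefSeq start up to that start or to the first base of an exon in GENCODE M21. Capitals mark the ER stress element (ERSE: CCAAT, any 9 bases, CCACG) in Syvn1 and Hsp90b1, ERSE-II (ATTGG, any base, CCACG) and the C/EBP-ATF element (TGATGNAA) in Herpud1, the C/EBP-ATF element in Chac1, and the separate CCAAT and CCACG boxes in Sel1l. An element on the other strand appears as its reverse complement.
Sel1l, chr12:91849158-91849407, minus strand: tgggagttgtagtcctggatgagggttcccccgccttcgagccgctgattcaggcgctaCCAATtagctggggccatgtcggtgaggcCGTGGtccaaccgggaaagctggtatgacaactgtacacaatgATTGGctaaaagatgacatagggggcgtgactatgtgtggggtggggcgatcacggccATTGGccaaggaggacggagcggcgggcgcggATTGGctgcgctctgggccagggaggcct
Syvn1, chr19:6046326-6046575, plus strand: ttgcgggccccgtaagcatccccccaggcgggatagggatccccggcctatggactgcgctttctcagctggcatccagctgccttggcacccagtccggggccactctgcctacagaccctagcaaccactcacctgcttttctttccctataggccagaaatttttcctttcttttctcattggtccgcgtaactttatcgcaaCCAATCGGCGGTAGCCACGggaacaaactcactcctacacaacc
Hsp90b1, chr10:86705510-86705694, minus strand: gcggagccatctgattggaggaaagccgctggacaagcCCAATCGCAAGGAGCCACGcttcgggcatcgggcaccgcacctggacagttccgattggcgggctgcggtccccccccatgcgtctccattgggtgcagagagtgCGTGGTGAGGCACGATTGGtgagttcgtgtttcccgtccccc
Herpud1, chr8:94386179-94386428, plus strand: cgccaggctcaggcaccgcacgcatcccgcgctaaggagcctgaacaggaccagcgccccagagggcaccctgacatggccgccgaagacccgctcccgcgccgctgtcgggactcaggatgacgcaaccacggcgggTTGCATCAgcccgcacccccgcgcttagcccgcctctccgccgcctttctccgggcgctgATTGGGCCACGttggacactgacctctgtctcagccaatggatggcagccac
Chac1, chr2:119350992-119351228, plus strand: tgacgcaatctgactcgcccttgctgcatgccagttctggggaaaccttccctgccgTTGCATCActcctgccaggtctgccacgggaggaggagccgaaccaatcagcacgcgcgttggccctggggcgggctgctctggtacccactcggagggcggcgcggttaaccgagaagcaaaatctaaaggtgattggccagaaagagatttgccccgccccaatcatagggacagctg

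Among the 26 members with a window of 300 bases, 8 held an ERSE on either strand: Hspa5, Hsp90b1, Calr, Canx, Pdia6, Dnajc3, Creld2 and Syvn1. Of all 27025 genes with a window, 0.137% held one. For this and the shares below, a gene of the whole set counted if any window under its name held the element. Each member was scored on its first listed window only. An ERSE-II was found in Dnajb11 and Herpud1, and in 0.0444% of all genes. The C/EBP-ATF element was in 4 members (Herpud1, Trib3, Asns and Chac1) and in 4.51% of all genes. The Xbp1 and Atf6 element TGACGTGG was in 0 of the 26 and in 0.714% of all genes, while its core ACGTG was in 10 of the 26 and in 21.8% of all genes. The short boxes were frequent: CCACG lay in 21 of the 26 and in 35.5% of all genes, and CCAAT in 21 of the 26 and in 41.1%. The ERSE holds CCAAT and CCACG, ERSE-II holds CCACG and the reverse complement of CCAAT, and TGACGTGG holds ACGTG, so these counts overlap. Sel1l had 4 CCAAT boxes and 1 CCACG but no pair of them at the spacing of an ERSE.

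Between the libraries, the module differed by little outside of 2 degradation genes, Sel1l and Syvn1. Of the 31 members, 1 was higher in the cKO library by 1.5-fold or more, with equality outside its interval, as were 2.46% of all measured genes. It was Sel1l, the membrane adaptor that hands misfolded proteins to the degradation machinery. By the same rule 0 of 31 were lower, against 3.42% of measured genes. At a limit of 1.2-fold, 2 members were higher, Sel1l and Syvn1, against 8.48% of measured genes, and 2 were lower, Ddit3 and Sdf2l1, against 9.91%. The share of members past 1.2-fold was thus not above the background in either direction. Among genes of at least 5 CPM, which leaves out Trib3 alone of the members, the shares of all genes were 1.49% higher and 2.41% lower at 1.5-fold, and 8.52% higher and 10.1% lower at 1.2-fold. The median log2 ratio over the 31 members was -0.10, and 26 of them lay below 0, as did 47.7% of measured genes and 47.2% of those of at least 5 CPM. On the authors' TPM, which is scaled per length, 24 of the 31 were below 0, as were 41.2% of measured genes, and the median was -0.05. In the plot of ratios by role, only the points of Sel1l and Syvn1, both degradation genes, lie beyond 1.2-fold on the high side.

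**Figure D1:**
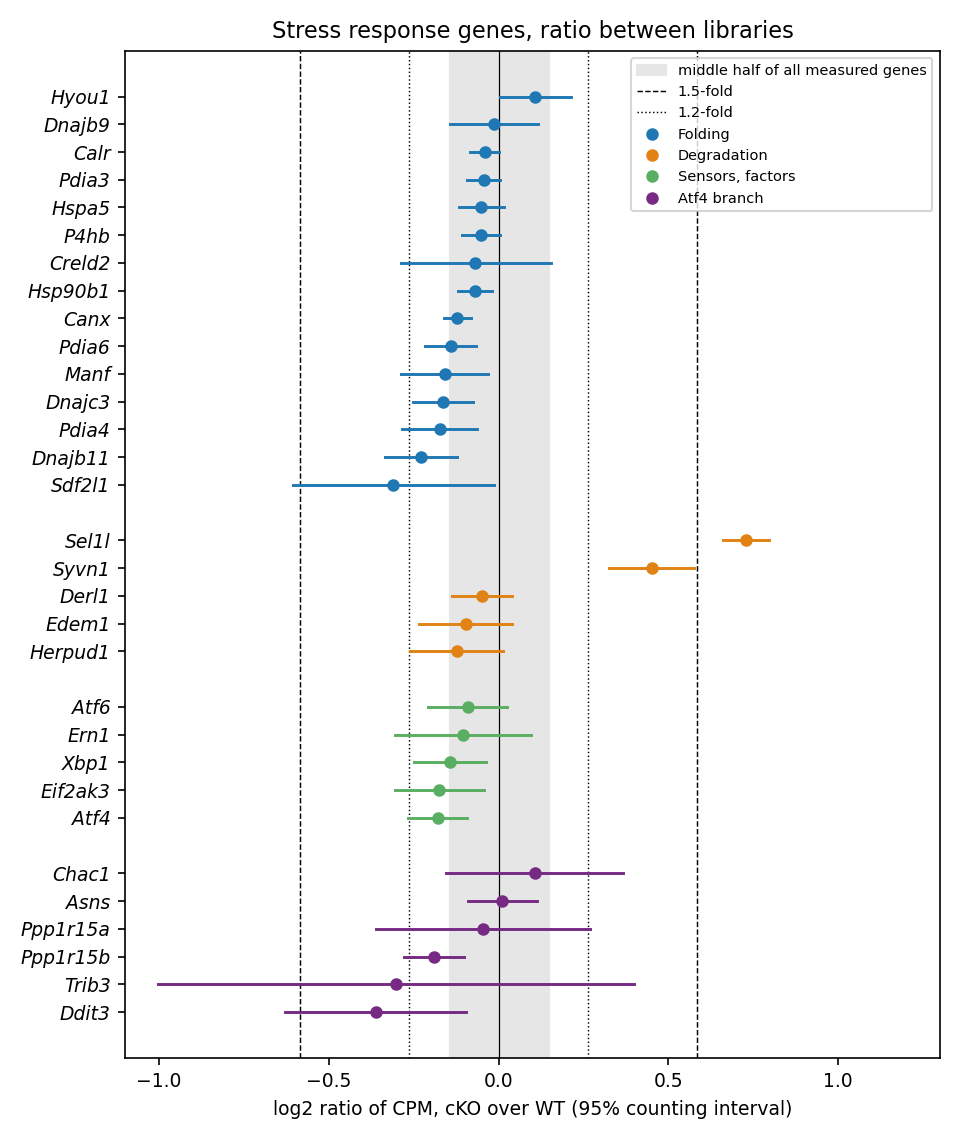
Log2 ratio of CPM, cKO over WT, for each of the 31 genes by role (points), with 95% counting intervals (bars); dotted and dashed lines mark 1.2-fold and 1.5-fold, and the grey band spans the quartiles of all 15917 measured genes, -0.14 to 0.15. Sel1l at 0.73 and Syvn1 at 0.45 stand to the right, and Ddit3 at -0.36 is the lowest.

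Degradation genes gave both of the higher members. Sel1l had 197.7 CPM in the cKO library and 119.3 CPM in the WT library, a log2 ratio of 0.73 (interval 0.66 to 0.80), or 1.66-fold. It rested on 10902 and 5118 counts, and 279 of the 15917 measured genes had a higher ratio. Syvn1, the ubiquitin ligase also called Hrd1 that works in a complex with Sel1l, had 51.99 CPM in the cKO library and 38.04 CPM in the WT library (0.45, interval 0.33 to 0.58; 1.37-fold), and 770 genes had a higher ratio. The other 3 members of this role lay slightly on the other side of 0. Herpud1, a scaffold of the same complex, had 34.33 CPM in cKO and 37.39 CPM in WT (-0.12, interval -0.26 to 0.01). Derl1, a membrane protein of the exit channel, had 84.94 and 87.83 CPM in that order (-0.05). Edem1, which helps mark misfolded glycoproteins, had 34.47 CPM in cKO and 36.87 CPM in WT (-0.10). The sum of the 5 genes was 403.4 CPM in the cKO library and 319.4 CPM in the WT library, and the median of their ratios was -0.05, so the higher sum came from Sel1l and Syvn1.

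Further proteins of the Sel1l and Syvn1 complex are coded by genes of another list of 22 degradation genes, of which 21 were measured. On CPM, none was higher by 1.2-fold, 1 was lower, 9 lay below 0, and the median was 0.03. The lower gene was Selenos, a selenoprotein that binds the complex, with 35.27 CPM in cKO and 42.56 CPM in WT (-0.27, interval -0.40 to -0.14). Named after their values were seen because they work with Sel1l, Erlec1 was at 0.20 and Os9 at 0.13; both are lectins that bring glycoproteins to it. Ube2j1, an ubiquitin-conjugating enzyme of the pathway, was at 0.17 and Derl2 at 0.11, while Aup1 and Ube2g2 were at -0.11 and -0.09. Vcp, the ATPase that pulls substrates out of the membrane and the most abundant gene of the list, had 365.8 TPM in cKO and 345.3 TPM in WT, with a CPM ratio of 0.05. Sel1l and Syvn1 therefore lay above every other gene of degradation that was listed and measured.

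The positions of these genes were also looked at. Sel1l lies on chromosome 12 and Syvn1 on chromosome 19 of GRCm38. The 8 nearest measured genes around Sel1l, 4 on each side, had log2 ratios between -0.38 and 0.36 with a median of 0.03, and none met the 1.5-fold rule. Around Syvn1 the 8 neighbours lay between -1.26 and 0.25 with a median of -0.05. The lowest was Gm45248 at 1.11 CPM in cKO and 2.66 CPM in WT. Neither gene shares exons with a neighbour on its own strand in GENCODE M21. Syvn1 shares 91 exon bases with Mrpl49 on the opposite strand, which had 28.07 CPM in cKO and 26.53 CPM in WT (0.08), and no source used here says whether the counting took strand into account.

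The transcripts of both genes were compared next, since the authors' estimate divides each gene's reads among its annotated forms. Shares below are percent of the gene's counts, with 95% Wilson intervals on fragments. For Sel1l, the 21-exon transcript Sel1l-204 held 83.6% in the cKO library and 84.6% in the WT library, with a log2 ratio of 0.71 (interval 0.64 to 0.79). Sel1l-201, which has 756 more exon bases, 150 of them coding, held 14.5% (13.5 to 15.4) in cKO and 12.1% (10.8 to 13.4) in WT, with a ratio of 0.99. Both forms of Sel1l were thus higher in the cKO library. Syvn1 was divided differently. Its form of 3464 bases held 64.8% of the counts in cKO and 2.21% in WT, and its form of 3363 bases held 0% in cKO, with an upper bound of 0.267%, and 64.5% in WT. The shorter form lies wholly within the longer one, which has only 101 bases of its own, 12 of them coding. Their summed counts gave a log2 ratio of 0.41 (interval 0.25 to 0.56). Another form, of 3159 bases and with a start further downstream, held 23.5% in cKO and 20.6% in WT and had a ratio of 0.64. The ratio of the whole gene does not rest on how the reads were split, but the switch between the forms of 3464 and 3363 bases does.

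**Figure D2:**
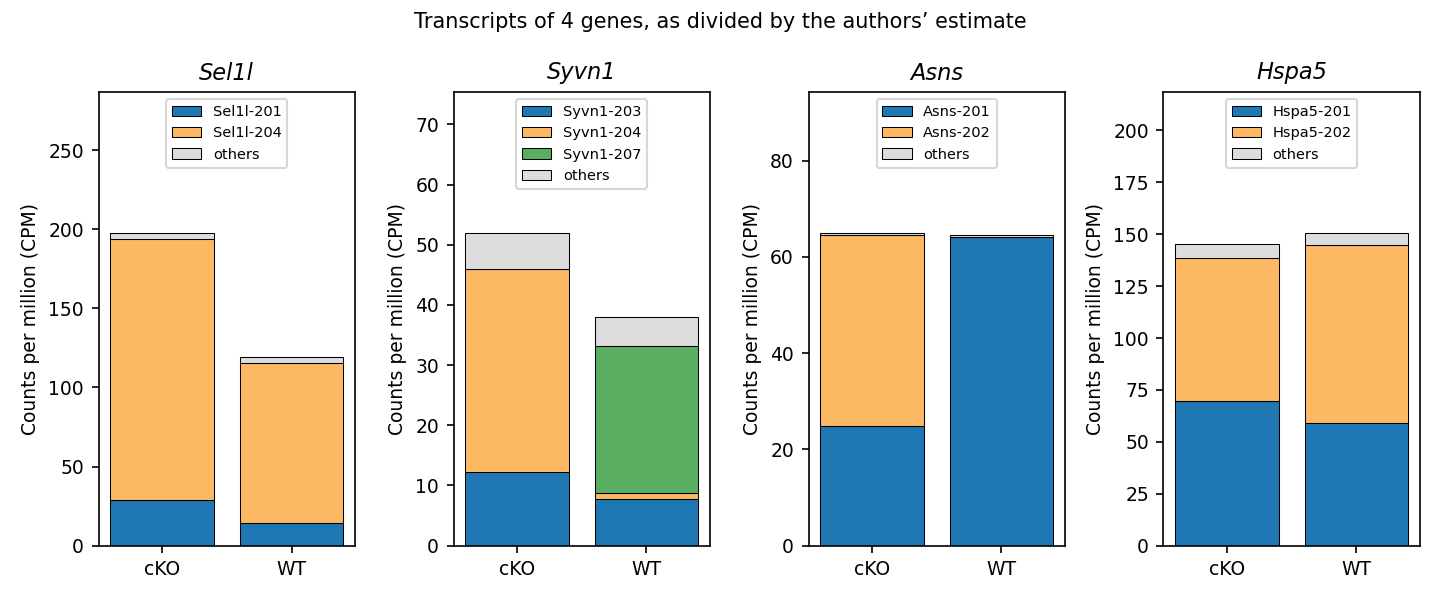
CPM of the main transcripts of Sel1l, Syvn1, Asns and Hspa5 in the cKO library (left bar of each panel) and the WT library (right bar), stacked, with the remaining transcripts in light grey; for Syvn1, orange is the form of 3464 bases and green that of 3363 bases, and for Hspa5, blue is the longer form. Both main forms of Sel1l are higher in cKO, whereas Syvn1 and Asns are assigned to different near-identical transcripts at totals of 51.99 and 38.04 CPM (Syvn1) and 65.03 and 64.52 CPM (Asns).

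Chaperones and folding enzymes were close between the libraries. Of the 15, none was higher by 1.2-fold and 1 was lower, 14 lay below 0, and the median log2 ratio was -0.07. On TPM, 12 of the 15 lay below 0. Of all measured genes, 47.7% were below 0 on CPM and 41.2% on TPM. Together they held 2126 CPM in the cKO library and 2247 CPM in the WT library. Hspa5 (BiP), the main Hsp70 chaperone of the ER and the usual readout of the unfolded protein response, had 145.5 CPM in cKO and 150.7 CPM in WT (-0.05, interval -0.12 to 0.02). Hsp90b1 (GRP94), the Hsp90 of the ER, had 265.2 CPM in cKO and 278.4 CPM in WT (-0.07, interval -0.12 to -0.02). The lectin chaperones of the ER differed from each other in how far they lay from equality. Calr had 356.0 CPM in cKO and 366.3 CPM in WT, with an interval of -0.08 to 0.00 around a ratio of -0.04. Canx, its membrane-bound relative, had 405.2 CPM in cKO and 440.9 CPM in WT, with a ratio of -0.12 and an interval of -0.16 to -0.08. The size of all 4 differences was under 1.1-fold.

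The disulfide isomerases followed a like pattern. Pdia3, which works with Calr and Canx on glycoproteins, had 274.1 CPM in cKO and 282.6 CPM in WT (-0.04). P4hb, the classical isomerase, had 216.3 CPM in cKO and 224.2 CPM in WT (-0.05). Pdia6 had 110.9 CPM in cKO and 122.4 CPM in WT (-0.14), and Pdia4 had 51.56 and 58.13 CPM in the same order (-0.17). The intervals of Pdia6 and Pdia4 left out equality, whereas those of Pdia3 and P4hb did not.

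Co-chaperones and small ER proteins held the extremes of this role. Dnajb11, a J-domain partner of BiP, had 55.44 CPM in cKO and 64.92 CPM in WT (-0.23, interval -0.33 to -0.12). Dnajc3, a partner of BiP that was also described as an inhibitor of eIF2 kinases, had 82.53 CPM in cKO and 92.42 CPM in WT (-0.16). Dnajb9, which ties BiP to Ern1, had 39.79 CPM in cKO and 40.18 CPM in WT (-0.01). Of these 3 J-domain genes, Dnajb9 alone had an interval that held equality. Hyou1, a nucleotide exchange factor for BiP, was the only member of the role above 0, with 63.72 CPM in cKO and 59.09 CPM in WT (0.11, interval 0.00 to 0.21). Sdf2l1, which forms a complex with Dnajb11 and keeps BiP clients soluble, was the lowest, at 7.14 CPM in cKO and 8.86 CPM in WT (-0.31, interval -0.60 to -0.01, on 394 and 380 counts). Its place past 1.2-fold was lost with upper quartile scaling and on TPM with a pseudocount of 1. Manf, a secreted ER protein with survival effects on neurons, had 39.15 CPM in cKO and 43.70 CPM in WT (-0.16), and Creld2, which is induced with it under ER stress, had 13.76 and 14.43 CPM in that order (-0.07).

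On TPM, Hspa5 and Dnajb9 moved from just below to just above 0 (log2 ratios of 0.00 and 0.02). Levels of different genes can be set against each other on that scale. Calr was the most abundant member, at 379.6 TPM in cKO and 380.1 TPM in WT, followed by Canx, Pdia3 and Hsp90b1, each above 219.2 TPM in both libraries. Trib3 was the scarcest, at 1.61 TPM in cKO and 2.06 TPM in WT. The order of the abundant chaperones was nearly the same in both libraries, as the plot of levels shows.

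**Figure D3:**
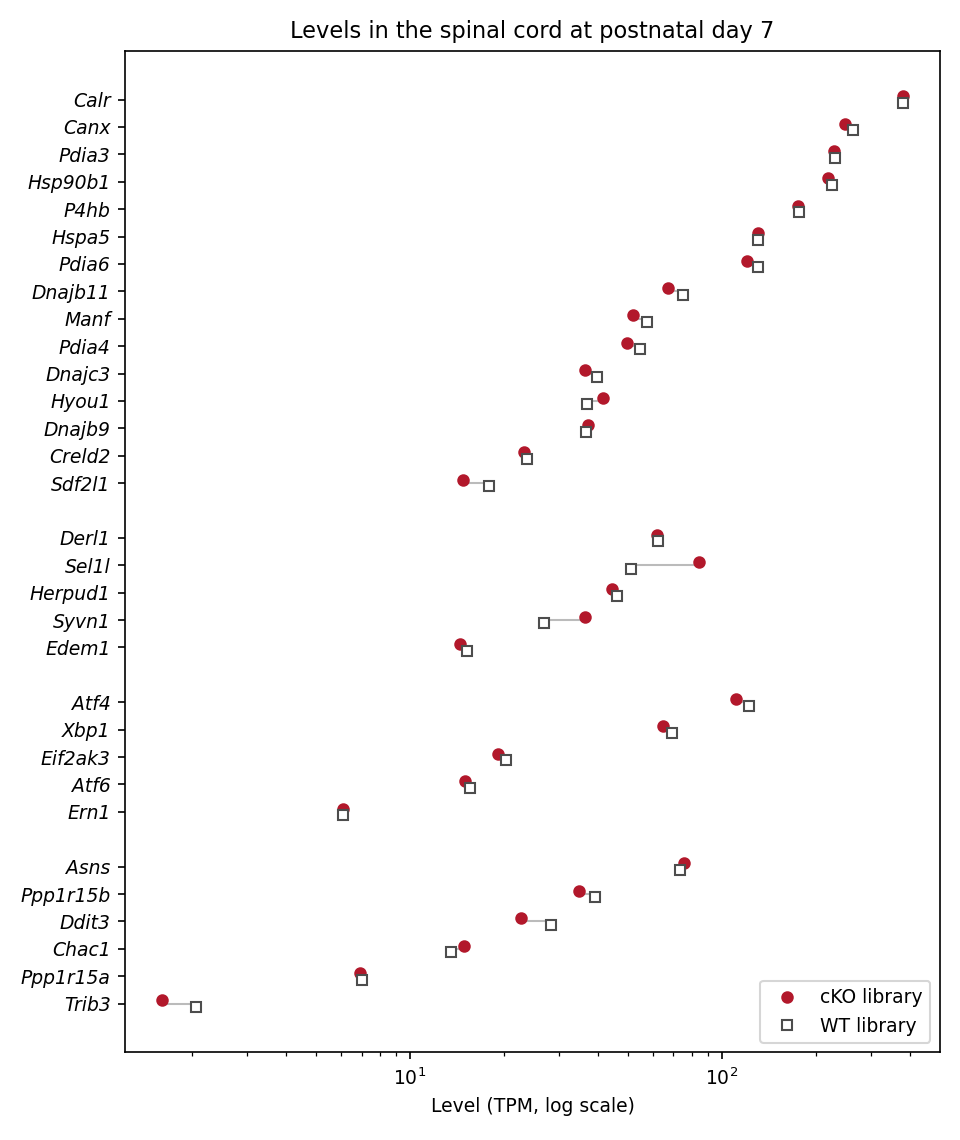
TPM of each gene in the cKO library (filled red circles) and the WT library (open squares) on a log axis, by role and in the order of the WT level. The circle lies well to the right for Sel1l (84.4 TPM in cKO, 51.3 TPM in WT) and Syvn1 (36.3 TPM in cKO, 27.0 TPM in WT), and to the left for Ddit3 (22.7 TPM in cKO, 28.4 TPM in WT) and Trib3 (1.61 TPM in cKO, 2.06 TPM in WT).

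Hspa5 transcripts were split between a form of 2613 bases, with 47.2% of the gene's counts in cKO and 57.0% in WT, and a form of 3672 bases, with 47.9% in cKO and 39.2% in WT. Both have the same coding sequence, and the longer form has 1141 bases that the other lacks, most of them at its 3′ end. Their log2 ratios were -0.32 and 0.24 in that order, and the summed ratio was -0.07 (interval -0.14 to 0.00). The main form of Hyou1, of 3374 bases, held 63.2% in cKO and 57.6% in WT. Of the 31 members, 28 had the same most abundant transcript in both libraries, and 22 had at least 90% of their counts on it in both. The 3 that differed were Hspa5, Syvn1 and Asns.

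On CPM, a further list of 29 ER folding genes was all within 1.2-fold. None met that rule in either direction, 16 lay below 0, and the median was -0.04 on CPM and 0.01 on TPM. Ppib, an ER prolyl isomerase and the most abundant of them, had 284.3 TPM in cKO and 287.1 TPM in WT. Named after their values were seen, the ends of the list on CPM were Sec63, a J-domain protein of the translocation channel, at -0.23 and Txndc5, a disulfide isomerase, at 0.23. Uggt1, likewise named later, lay further out on TPM, with 28.82 TPM in cKO and 19.35 TPM in WT. Its log2 ratio was 0.57 on TPM and 0.14 on CPM.

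The sensors and their factors were all slightly lower in the cKO library, and none reached 1.2-fold. Their median log2 ratio was -0.14 on CPM and -0.08 on TPM, and their sum was 240.5 CPM in cKO and 266.6 CPM in WT. Atf4, the factor translated when eIF2 is phosphorylated, had 83.43 CPM in cKO and 94.50 CPM in WT (-0.18, interval -0.27 to -0.09). Eif2ak3, the kinase of the ER membrane, had 36.20 CPM in cKO and 40.84 CPM in WT (-0.17, interval -0.31 to -0.04). Xbp1, the factor whose mRNA is cut by Ern1, had 57.16 CPM in cKO and 63.17 CPM in WT (-0.14, interval -0.25 to -0.04). For these 3 the interval left out equality. Atf6 had 47.44 CPM in cKO and 50.53 CPM in WT (-0.09, interval -0.21 to 0.03). Ern1 had 16.32 CPM in cKO and 17.55 CPM in WT (-0.10, interval -0.31 to 0.10). Of measured genes, 20.6% had a lower ratio than Atf4 and 31.9% a lower one than Atf6, with the other 3 between these.

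Activity of these sensors is not read from their own mRNA levels. Ern1 removes 26 bases from the Xbp1 mRNA, and the shortest intron in the 4 Xbp1 transcripts of GENCODE M21 was 300 bases, so the deposited estimates hold no separate value for the cut form. The main form, of 2129 bases, held 95.2% of the Xbp1 counts in cKO and 96.2% in WT. Phosphorylation of eIF2 and cleavage of Atf6 act on proteins and were not measured. Among 13 partners of the sensors, none met the 1.2-fold rule, 6 lay below 0, and the median was 0.03. Tmbim6, an ER membrane protein that restrains Ern1 and the most abundant of these, had 398.9 TPM in cKO and 398.4 TPM in WT.

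Genes of the Atf4 branch did not differ in 1 direction. Their median log2 ratio was -0.12, with 4 of 6 below 0, and they summed to 171.4 CPM in cKO and 184.2 CPM in WT. Ddit3 (CHOP), a factor linked to cell death under lasting stress, had 8.60 CPM in cKO and 11.05 CPM in WT (-0.36, interval -0.63 to -0.10), on 474 counts in each library. Of the members, 11 share exon bases with another gene that has counts, 10 of them on the opposite strand. Ddit3 shares 68 of its 1713 exon bases with Mars on the opposite strand, which had 47.18 CPM in cKO and 46.38 CPM in WT. Ddit3 was the lowest member of the module, and 8.90% of measured genes had a lower ratio. Trib3, a pseudokinase that Ddit3 and Atf4 induce, had 75 counts in cKO and 72 in WT (-0.30, with an interval reaching up to 0.40), too few to show a difference of this size.

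The other 4 genes of the branch lay nearer to equality. Asns, the enzyme that makes asparagine, had 65.03 CPM in cKO and 64.52 CPM in WT (0.01, interval -0.09 to 0.11). Chac1, which degrades glutathione, had 10.66 CPM in cKO and 9.91 CPM in WT (0.11, interval -0.15 to 0.37). Ppp1r15a (GADD34), the inducible subunit of the phosphatase that reverses eIF2 phosphorylation, had 6.93 CPM in cKO and 7.16 CPM in WT (-0.05, interval -0.36 to 0.27). Ppp1r15b, its constitutive counterpart, had 78.85 CPM in cKO and 89.93 CPM in WT (-0.19, interval -0.28 to -0.10). Only for Ppp1r15b among these 4 did the interval leave out equality, at a difference of 1.14-fold.

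Asns had an equal level in both libraries but a different form by the authors' estimate. Asns-201 held 38.3% of the counts in cKO (interval 36.1 to 40.6) and 99.5% in WT (99.0 to 99.8). Asns-202 held 61.1% in cKO and 0.07% in WT. The forms share 1855 exon bases and the whole coding sequence, and differ in their first exons of 146 (Asns-201) and 161 (Asns-202) bases. Their summed counts were 3564 in cKO and 2756 in WT, a log2 ratio of 0.01. The assignment rests on reads over those first exons, which the deposited tables do not list by position.

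A wider list of 41 genes of the Atf4 axis, 39 of them measured, went in both directions. At 1.2-fold, 2 were higher, 4 were lower, and the median was 0.02 with 16 below 0. The higher genes were Stc2, a secreted glycoprotein gene, at 0.65 on 163 counts in cKO and 81 in WT, and Sesn2, a sensor of leucine for mTORC1, with 47.17 CPM in cKO and 35.20 CPM in WT (0.42). The lowest were Cth, an enzyme of cysteine synthesis, at -0.88 on 87 counts in cKO and 125 in WT, and Eif4ebp1, a translation repressor, at -0.46 on 210 and 225 counts. The other 2 lower genes, named after their values were seen, were Psat1, an enzyme of serine synthesis, with 72.23 CPM in cKO and 98.71 CPM in WT (-0.45), and Vegfa, an angiogenic growth factor, at -0.42. Slc6a9, a glycine transporter and the gene of highest TPM in the list, was at 0.00, with 192.8 TPM in cKO and 195.0 TPM in WT. Phgdh, which comes before Psat1 in serine synthesis and was also chosen after its value was seen, was at 0.02.

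The eIF2 kinases, eIF2 and eIF2B had a median of 0.11, and 3 of 13 genes lay below 0. All 5 eIF2B genes, described as a complex after their values were seen and whose partial loss of function causes a leukodystrophy in humans, lay between 0.02 and 0.16. Gcn1l1, a cofactor of the amino acid sensing kinase, was higher at 136.1 CPM in cKO and 110.0 CPM in WT (0.31, interval 0.23 to 0.38). Eif2s3x, the X-linked gene for the gamma subunit of eIF2, was lower at 127.8 CPM in cKO and 194.0 CPM in WT (-0.60, interval -0.67 to -0.54). Its Y-linked copy Eif2s3y had 38.37 CPM in cKO and 0 counts in WT, and the sum of the 2 genes gave a log2 ratio of -0.22 (interval -0.28 to -0.16). Eif2s1 and Eif2s2, the alpha and beta subunits and likewise chosen later, were at -0.16 and -0.11. Ppp1ca, the catalytic subunit that Ppp1r15a and Ppp1r15b direct to eIF2 and the gene of highest TPM here, was at 0.10.

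Chaperones outside the ER were set beside those of the module. Cytosolic heat shock genes had a median of 0.07, with 4 of 16 below 0 on both CPM and TPM. Of the 15 ER folding members, 14 were below 0 on CPM and 12 on TPM. The shares of all measured genes were 47.7% on CPM and 41.2% on TPM. The difference between the heat shock and folding lists was not tested. Hsp90ab1, the most abundant heat shock gene, had 1391 TPM in cKO and 1253 TPM in WT (0.13 on CPM). Dnajb4, a cytosolic J-domain gene, was higher, with 46.60 CPM in cKO and 24.10 CPM in WT (0.95). Cryab, a small heat shock protein that mature oligodendrocytes express, had 18.22 CPM in cKO and 27.78 CPM in WT (-0.61), and Hspb1 had 11.32 and 14.20 CPM in that order (-0.33). All 10 mitochondrial chaperone and protease genes lay within 1.2-fold, with a median of 0.04; Hspd1, the most abundant, was at -0.05.

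**Figure D4:**
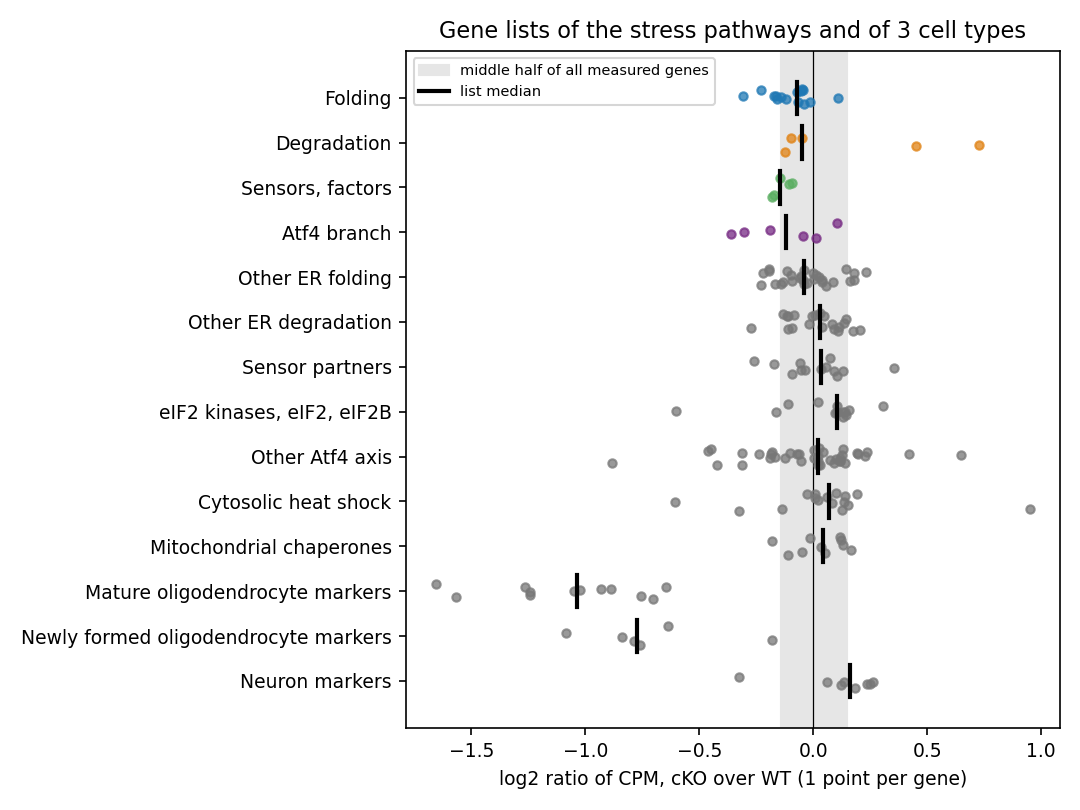
Log2 ratio of CPM, cKO over WT, of each measured gene (points) in the 4 roles of the module, 7 further pathway lists and markers of 3 cell types; black bars are list medians and the grey band spans the quartiles of all measured genes. Stress lists have medians between -0.14 and 0.11, while mature oligodendrocyte markers have a median of -1.04.

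Markers of mature and newly formed oligodendrocytes differed between the libraries by more than the median of any stress list. All 12 mature oligodendrocyte markers were lower in cKO by at least 1.5-fold, with log2 ratios between -1.66 and -0.65, as were 5 of the 6 markers of newly formed oligodendrocytes. Of the 6 precursor markers none was lower by 1.5-fold, but all 6 lay below 0 on CPM, with a median of -0.12. On TPM 4 of the 6 lay below 0, with a median of -0.03. At 1.2-fold on CPM 2 of the 6 were lower, Olig2 at -0.53 and Lhfpl3 at -0.27. In whole cord, fewer cells of a type and less RNA per cell cannot be told apart. The part of this shift in the small differences of the ER genes was not tested. The 5 markers of meninges and fibroblasts, which secrete collagen through the ER, all lay below 0, with a median of -0.33, 3 of them lower by 1.2-fold, and sums of 2279 CPM in cKO and 2528 CPM in WT. Bone and cartilage markers, whose cells are also rich in ER, were at 8.49 CPM summed in cKO and 15.85 CPM in WT, and haemoglobin and Alas2 had a higher sum in cKO, at 1898 CPM, against 1299 CPM in WT. Their part in the results was not tested either.

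Ratios of members with and without a promoter element overlapped. The 8 with an ERSE had a median log2 ratio of -0.07 and ranged from -0.16 to 0.45, with 7 below 0. The 10 with an ERSE or ERSE-II had a median of -0.10 and ranged from -0.23 to 0.45. The 16 with neither ERSE nor ERSE-II also had a median of -0.10 and ranged from -0.36 to 0.73. The 4 with a C/EBP-ATF element had a median of -0.06, between -0.30 and 0.11. Among the members scored, Syvn1 was the only one above 0 that held an ERSE. Its element stands on the gene's own strand, 44 to 26 bases before the start. Hyou1, at 0.11, had no window, so whether it holds an ERSE is not known here. The other members without a window were Manf, Derl1, Atf6 and Ppp1r15b. Hsp90b1, at -0.07, has an ERSE on its own strand, 212 to 194 bases before the start. It has another on the other strand, 107 to 89 bases before the start. Whether place or strand bears on the ratios was not tested. A match in these windows describes letters and does not show that a factor bound there.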

How the data were processed

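Per the labels' protocols, RNA of the cord was taken up in Trizol, and a VAHTS V2 mRNA kit was used for the libraries. CASAVA, Bowtie2 2.3.2 and the build GRCm38.p6 are named in the submitters' processing notes, with no role; what counted the reads is not given in the sources used here. Estimated counts, TPM and FPKM were deposited by the authors, per the file headers, over 51826 genes and 128622 transcripts. Deposited counts behave as estimates rounded up, and values of genes with 1 transcript gathered just below even numbers, so 1 fragment was taken as 2 counts.

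Counts were scaled to CPM on library totals with TMM factors (edgeR 4.0.16 in R 4.3.3; 0.9994 for cKO and 1.0006 for WT). Log2 ratios had no pseudocount; counts of 0 were set to 3 fragments. Genes were counted at 1.5-fold and at 1.2-fold where the exact interval (scipy 1.17.1, Python 3.11.15) left out 1. The code was tested on simulated data. Alternatives were library totals, upper quartile, DESeq2 1.42.0 size factors, TPM and FPKM with pseudocounts of 0.1 or 1, other filters, and 1 transcript per gene. GENCODE M21 gave transcript names and exons.

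The members were given as a list. These and all other lists and rules were chosen with earlier results of these data known. All members are described; of each pathway list the text names the genes past 1.2-fold with the highest and lowest ratios, up to 2 each way, and the gene of highest TPM, and says where another was added after its values were seen. Ends of the proteins, a planned feature, were not analysed here.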

Additional observations from a re-analysis of the deposited data

How the results depend on the processing

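Sel1l stayed higher by at least 1.5-fold, and Syvn1 and Ddit3 past 1.2-fold, under all 12 alternatives. On TPM, on FPKM and on CPM with a pseudocount, only the ratio was replaced, and the interval stayed that of the reported CPM ratio. The count at each limit could there change only through the size of the ratio. The other filters, and intervals taken on counts rather than fragments, leave each ratio as it was, so those values could not move. Of 371 member ratios under the alternatives, these unmoved ones included, 365 stayed inside the counting interval of the ratio reported. Canx left it on TPM (-0.08), and 4 genes left it when 1 transcript stood for the gene: Syvn1 (5.33, for its form of 3464 bases), Asns (-1.37, for Asns-201), Hspa5 (-0.32) and Hyou1 (0.24). With that choice 2 members were higher and 1 lower at 1.5-fold and 4 were lower at 1.2-fold, because transcripts that share most exons were divided differently in the libraries. Sdf2l1 left the 1.2-fold count with upper quartile scaling and on TPM with a pseudocount of 1, which leaves 1 lower member, Ddit3. Members below 0 numbered 24 to 26 over the alternatives other than 1 transcript per gene. No paired analysis was possible because each group has 1 library. With 75 and 72 counts for Trib3, a difference of 1.2-fold was not detectable at this depth.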
